A study of Rattus norvegicus with 24 samples.

Results

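Diabetic rat wounds treated with the hydrogel CuNZ@Gel were set against wounds treated with the hydrogel Gel in the areas labelled Segment 2. The 8 areas of this comparison were picked by their labels from 24 areas in the series: 4 areas from CuNZ@Gel specimens 1 and 2 and 4 areas from Gel specimens 1 and 2, with regions mac1 and mac2 of each specimen. All rats were male SD (Sprague-Dawley) rats made diabetic with STZ (streptozotocin) at 5 weeks of age, and all carried a splinted full-thickness skin defect of 8 mm that was taken at day 7. The 4 Sham areas of Segment 2 came from diabetic rats with the same kind of wound. They are not a side of the comparison, but they entered the filter for tested targets and the shared estimate of spread. RNA was read by GeoMx spatial profiling, in which probe tags are released by light from chosen areas of fixed, paraffin-embedded sections and then sequenced. The labels do not say which antibody stains defined the segments, what "mac" stands for, what CuNZ or either gel is made of, or whether a numbered specimen is 1 animal. The series title describes a sprayable nanozyme hydrogel and names inflammation, epigenetic control and diabetic wound repair as its subject.

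As background, a skin wound passes from inflammation, led by neutrophils and macrophages, to a phase in which fibroblasts lay down a provisional matrix and some turn into contractile myofibroblasts. Tenascins, thrombospondins and fibronectin belong to that early matrix, and tenascin C is low in resting dermis. Metallothioneins are small cysteine-rich proteins that hold zinc and copper ions, and their genes are switched on by the zinc-sensing factor MTF1 at short metal response elements in their promoters. Transferrin carries iron in blood and tissue fluid.

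The promoters of both tested metallothionein genes that changed between the gels are shown because both genes fell together. Each sequence is the 250 bases before the annotated start in RefSeq, build GRCr8, 5′ to 3′ on the gene's own minus strand. The Mt1 window lies at chr19:10832976-10833225. The target named Mt2 corresponds to the rat gene Mt2A, whose window lies at chr19:10838709-10838958. Capitals mark the core of the metal response element, searched as TGCACNC or TGCGCNC on both strands.
Mt1: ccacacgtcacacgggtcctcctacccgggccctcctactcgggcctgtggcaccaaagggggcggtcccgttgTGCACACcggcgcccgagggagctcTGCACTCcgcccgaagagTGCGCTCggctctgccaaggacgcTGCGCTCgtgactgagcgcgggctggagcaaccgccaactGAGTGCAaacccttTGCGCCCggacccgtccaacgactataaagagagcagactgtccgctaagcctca
Mt2A: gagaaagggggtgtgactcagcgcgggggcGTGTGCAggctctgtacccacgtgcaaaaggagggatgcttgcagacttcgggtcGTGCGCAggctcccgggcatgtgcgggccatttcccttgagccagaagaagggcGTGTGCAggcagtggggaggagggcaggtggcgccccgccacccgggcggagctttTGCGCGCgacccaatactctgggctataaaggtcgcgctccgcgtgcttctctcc
The Mt1 window holds 6 cores, the nearest 55 bases before the start, and the Mt2A window holds 4, the nearest also 55 bases before the start. Over all 33465 RefSeq promoter windows of the same length, 20.6% hold 1 core or more, 0.266% hold 4 or more and 0.0269% hold 6 or more. A match of these letters is a description of the sequence and does not show that a factor binds there.

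The recovered counts per area ran from 86386 to 244550 in CuNZ@Gel and from 139682 to 688520 in Gel, with 118813 to 183294 in Sham. Each area had a floor at 1 count, with nothing at 0: 12.9% to 46.9% of targets stood at that floor in CuNZ@Gel areas and 0.110% to 30.5% in Gel areas. The shallowest area was CuNZ@Gel specimen 1 region 1, and the deepest was Gel specimen 1 region 2. Gel specimen 2 region 2 was the Gel area least like the others (Pearson correlations across the tested targets, on the log2 scale, of 0.828 to 0.833 with them, against 0.828 to 0.917 within Gel as a whole). Within CuNZ@Gel the correlations ran from 0.812 to 0.897, and between the gels from 0.750 to 0.850. The target names follow mouse usage: 83.5% of them equal a rat gene symbol, and how well each probe reads rat RNA is not known here.

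Values below are the authors' scaled signal in arbitrary units, always in the order specimen 1 region 1, specimen 1 region 2, specimen 2 region 1, specimen 2 region 2. For tests, log2(signal + 1) was averaged over the 2 areas of each specimen, and limma was fitted to the 6 specimens of Segment 2, so that each gel had n = 2. A target was tested if it stood above the background level, the 99th percentile of odorant, vomeronasal and trace amine receptor targets in the same area, in at least 4 of the 12 areas. It was called where the adjusted p was under 0.05, with Benjamini-Hochberg adjustment over all 4329 tested targets. A log2 change is CuNZ@Gel minus Gel and understates the change of low targets. In bulk areas such as these, fewer cells of a type and less RNA per cell cannot be told apart.

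Of the 4329 tested targets, 94 were called (2.17%): 70 were higher in CuNZ@Gel (1.62%) and 24 were lower (0.554%). The median change over all tested targets was 0.0090. The largest rises included genes of the provisional matrix, of matrix enzymes and of the actin cytoskeleton, and the largest falls were in C1qb, both metallothioneins, Prg4 and Trf. All 4 CuNZ@Gel areas lay on one side of all 4 Gel areas for 63 of the 94 called targets, 48 of them higher and 15 lower. Over all tested targets the same separation was seen for 240 (5.54%), higher for 165 (3.81%) and lower for 75 (1.73%). Of the called targets, 23 kept their call when each specimen of either gel, the deepest area, the shallowest area and the least like Gel area were left out in turn. These were Tnn, Mfap4, C1qtnf3, Col12a1, Ccn3, Gpc6, Fam20c, Tagln, Actn1, Palld, Inhba, Wnt5a, Mdk, Rasl11b, Sox4, Sertad4, Rpn2 and Ms4a4a, all higher, and Mt1, Mt2, Trf, Prg4 and C1qb, all lower. All these fits kept the set of tested targets fixed. Rpn2 entered that set only through its 4 CuNZ@Gel areas, so its kept call does not test that choice. Every other called target lost its call in at least 1 of these fits, which means that its adjusted p passed 0.05, with the direction kept. Of the 23, Col12a1, Palld, Inhba, Rasl11b and Wnt5a lost it with those 3 areas left out together (adjusted p from 0.079 to 0.62). Without CuNZ@Gel specimen 1 the count of calls was 41, and without CuNZ@Gel specimen 2 it was 60. Without Gel specimen 1 it was 108, and without Gel specimen 2 it was 162. No called target turned its direction in any of the 28 alternatives run that gave a result for it.

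**Figure D1:**
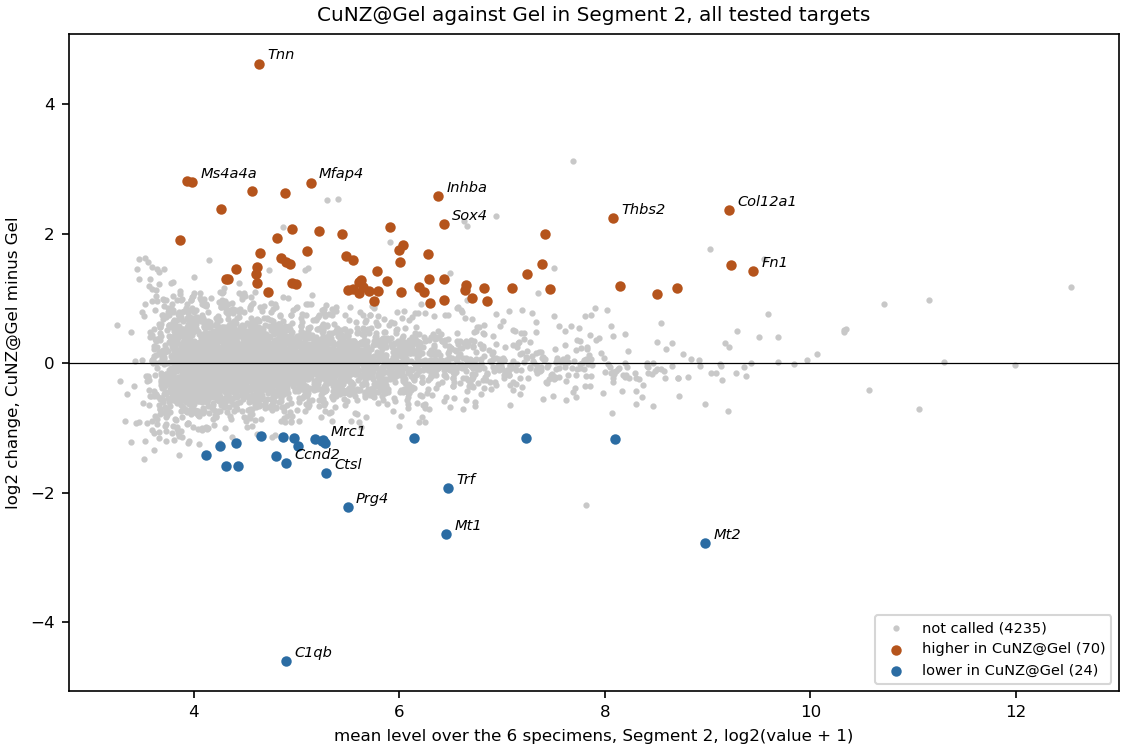
Log2 change of CuNZ@Gel minus Gel (vertical axis) against the mean Segment 2 level, log2(signal + 1), of each tested target (horizontal axis). The 70 targets called higher in CuNZ@Gel are in brown, the 24 called lower in blue and the rest in grey. Tnn stands at 4.62 and C1qb at -4.60, beyond all other targets, and Mt2 combines a high level with a change of -2.78.

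The metallothioneins Mt1 and Mt2 were lower with CuNZ@Gel than with Gel. Mt2 had a signal of 386, 369.7, 599.6 and 375 in the CuNZ@Gel areas, against 3984, 3645, 2602 and 1915 in the Gel areas. Every CuNZ@Gel area was below every Gel area, and Mt2 fell (log2 change -2.78, SE 0.28, adjusted p = 9.7e-08), 6.88-fold on the log2(signal + 1) scale. The mean of the specimens was 426 ± 68.0 in CuNZ@Gel and 3022 ± 1116 in Gel (SD, n = 2 each). Mt1 had 30.7, 40.3, 77.7 and 61.3 in the CuNZ@Gel areas, against 467, 426, 278 and 172 in the Gel areas, again without overlap, and fell (log2 change -2.64, SE 0.36, adjusted p = 0.00071). Mt1 and Mt2 were called under each alternative except quantile normalization (adjusted p = 0.077 for Mt1 and 0.219 for Mt2). In Sham areas, Mt2 stood at 61.3, 101, 131 and 133 and Mt1 at 46.0, 51.5, 32.7 and 38.8, so the CuNZ@Gel areas lay above Sham for Mt2 while they overlapped it for Mt1. The metallothionein list held 3 tested targets, and the one besides Mt1 and Mt2 was Mtf1, the factor that switches these genes on. Mtf1 had 9.20 to 25.9 in CuNZ@Gel areas, against 12.3 to 24.5 in Gel areas, and was not called (log2 change -0.40, 95% interval -1.15 to 0.35). Of the 10 tested genes for copper and zinc handling, the only calls were these 2 metallothioneins, and the list median was -0.09. Atox1, a copper chaperone, had 30.7, 49.1, 38.2 and 35.4 in the CuNZ@Gel areas, against 21.8, 25.8, 26.6 and 26.6 in the Gel areas. Its areas did not overlap, but it did not pass the test (log2 change 0.57, SE 0.28, adjusted p = 0.44). The 8 tested antioxidant enzymes held no call, with a median of 0.04 and a range of -0.66 to 0.22.

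Trf, the gene of transferrin, had 36.8, 57.8, 101 and 55.9 in the CuNZ@Gel areas, against 233, 358, 256 and 125 in the Gel areas. The CuNZ@Gel areas were all lower, and Trf fell (log2 change -1.93, SE 0.27, adjusted p = 2.5e-05). Sham areas stood at 58.3, 41.7, 38.8 and 67.5, within the range of the CuNZ@Gel areas. Fth1, the heavy chain of the iron store ferritin, had 1061, 1274, 1635 and 1365 in the CuNZ@Gel areas, against 2501, 2936, 2876 and 1032 in the Gel areas, and did not pass the test (log2 change -0.71, SE 0.29, adjusted p = 0.29). All 7 tested iron genes had changes below 0, from -1.93 to -0.13, with a median of -0.47, but Trf was the only call among them. Prg4, which encodes the lubricating proteoglycan lubricin, fell in the same way. It had 33.7, 33.3, 27.3 and 25.9 in the CuNZ@Gel areas, against 271, 134, 161 and 71.5 in the Gel areas, with no overlap (log2 change -2.22, SE 0.28, adjusted p = 3.6e-06). For Mt1, Mt2, Trf and Prg4, the Sham mean lay below both gels.

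**Figure D2:**
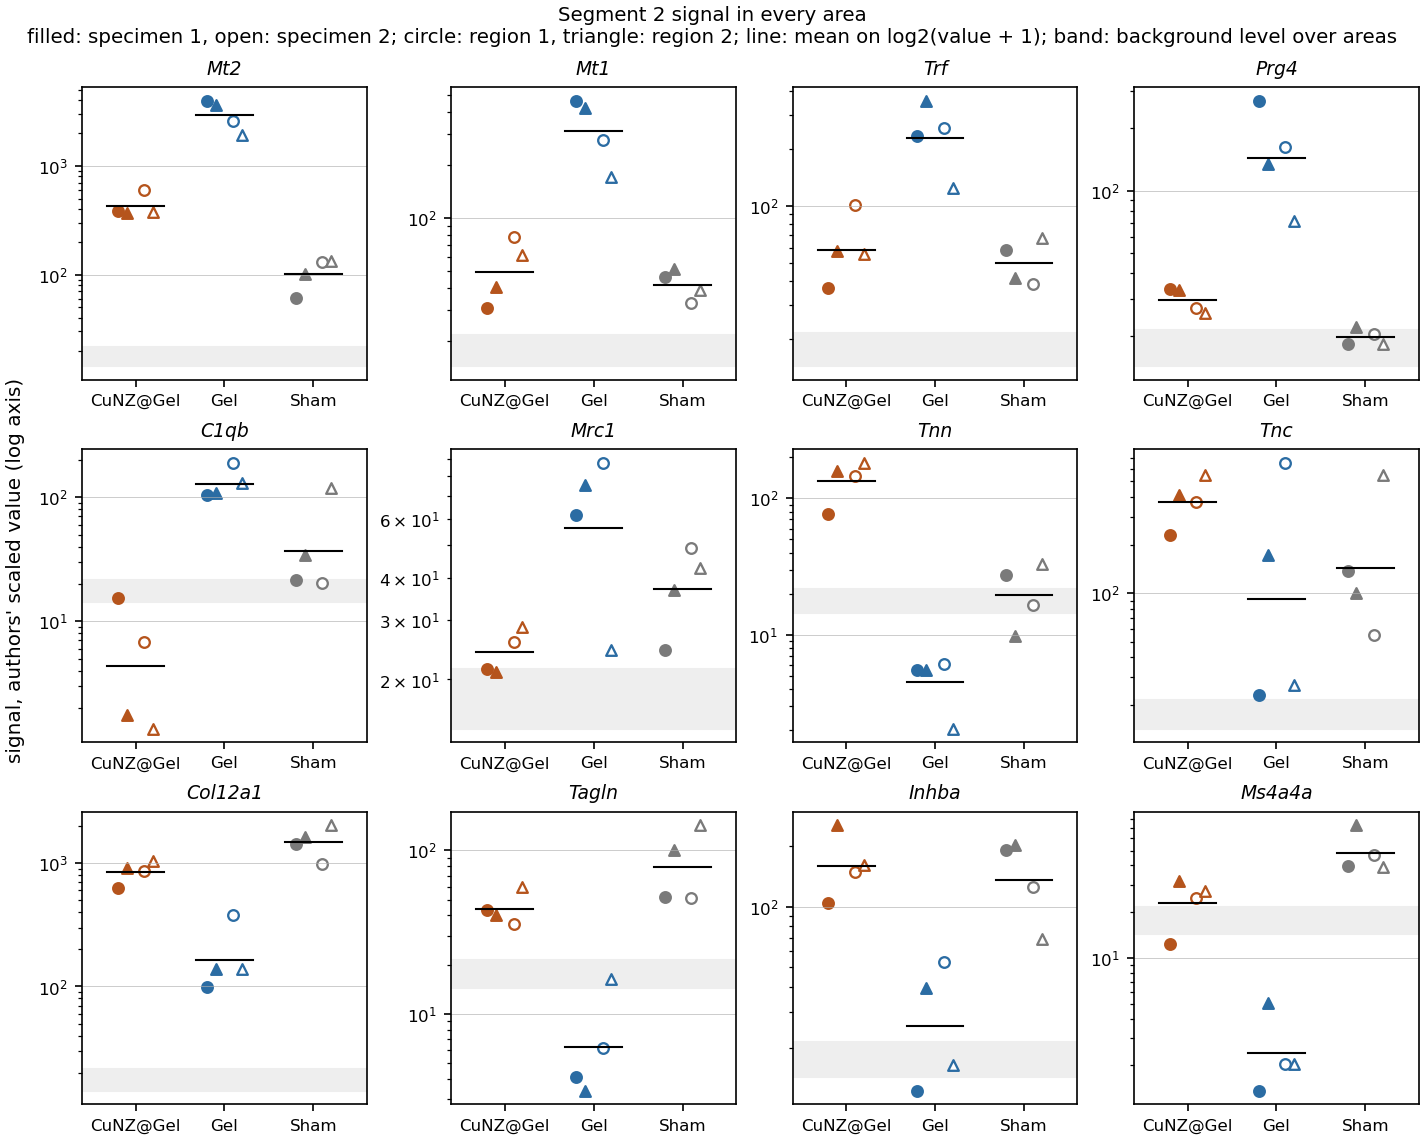
Segment 2 signal (log axis) of 12 targets in each of the 4 areas of CuNZ@Gel, Gel and Sham. Filled points are specimen 1 and open points specimen 2, circles region 1 and triangles region 2, lines are means on the log2(signal + 1) scale, and the grey band is the range of background levels over areas. The CuNZ@Gel and Gel areas do not overlap for 10 of these targets, while for Tnc and Mrc1 1 Gel area reaches the CuNZ@Gel values.

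Genes of the provisional matrix were higher with CuNZ@Gel. Of the 11 tested matricellular and adhesion proteins, 6 rose and none fell, and the list median was 1.59. Tnn, encoding tenascin N, had the largest rise of all tested targets. It had 76.7, 159, 146 and 183 in the CuNZ@Gel areas, against 5.45, 5.50, 6.13 and 2.04 in the Gel areas. The Gel values were 1 to 13 recovered counts and none was above background, so the fitted rise (log2 change 4.62, SE 0.32, adjusted p = 2.2e-11) is no measure of how many times higher it was. Sham areas stood at 27.6, 9.81, 16.4 and 32.7. Thbs2, encoding thrombospondin 2, had 309.7, 385, 353 and 428 in the CuNZ@Gel areas, against 34.1, 82.0, 106 and 114 in the Gel areas, with no overlap, and rose (log2 change 2.25, SE 0.27, adjusted p = 2.1e-06). Its call was lost without the deepest Gel area (adjusted p = 0.13, log2 change 2.56). Tnc, encoding tenascin C, had 230.0, 410.0, 371 and 545 in the CuNZ@Gel areas, against 23.2, 174, 654 and 26.6 in the Gel areas. The Gel areas spread widely, and 1 of them was the highest of all 8. Tnc rose in the fit (log2 change 1.99, SE 0.31, adjusted p = 0.0011), and its call was lost without the deepest area (adjusted p = 0.46, log2 change 2.71) or without Gel specimen 2 region 2 (0.92, log2 change 0.85). Fn1, encoding fibronectin, had 779, 1006, 852 and 1112 in the CuNZ@Gel areas, against 203, 291, 572 and 419 in the Gel areas, and rose (log2 change 1.42, SE 0.28, adjusted p = 0.0021). It missed the threshold without CuNZ@Gel specimen 1 (adjusted p = 0.052, log2 change 1.49) or specimen 2 (0.076, log2 change 1.36). Ccn3 and Ccn4, which encode secreted regulators of cell adhesion, rose by 1.68 and 1.29 on the log2 scale. Postn, encoding periostin, had 138 to 223 in CuNZ@Gel areas, against 14.0 to 110.4 in Gel areas, with no overlap, but the specimens spread widely and it was not called (log2 change 2.12, SE 0.91, adjusted p = 0.57).

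Among collagens the called rises were in genes of fibril-associated and fibril-limiting types, a split by call and not by size of change. Col12a1, whose product coats the surface of collagen fibrils, had 629, 918, 867 and 1042 in the CuNZ@Gel areas, against 99.5, 138, 378 and 139 in the Gel areas. No area overlapped, and it rose (log2 change 2.37, SE 0.27, adjusted p = 1.2e-06). Col11a1 and Col5a1, whose products start and limit the width of fibrils, rose by 2.07 and 1.51. The call of Col11a1 was lost without CuNZ@Gel specimen 2 (adjusted p = 0.1, log2 change 1.76), and that of Col5a1 without CuNZ@Gel specimen 1 (0.19, log2 change 1.58), specimen 2 (0.2, log2 change 1.45) or the deepest area (0.14, log2 change 1.52). The main dermal collagens were not called. Col1a1 had 150.2, 256, 244 and 313 in the CuNZ@Gel areas, against 57.2, 37.2, 139 and 164 in the Gel areas (log2 change 1.47, SE 0.55, adjusted p = 0.4), and Col3a1 had 5313, 6691, 7846 and 7681 in the CuNZ@Gel areas, against 1915, 1193, 4149 and 8656 in the Gel areas (log2 change 1.18, SE 0.56, adjusted p = 0.52). Both Gel specimens differed from each other in these genes, and 1 Gel area held the highest Col3a1 value of all 8. The change of Col1a1 was close to that of Col5a1. Col1a1 passed under 7 of the 28 alternatives and Col3a1 under 3. In the whole collagen list 3 of 12 tested genes rose, none fell, and the median was 0.98.

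Of 9 tested genes of elastic fibres and microfibrils, 2 rose and none fell. Mfap4, encoding a glycoprotein of elastic fibres, had 61.3, 42.0, 53.1 and 72.2 in the CuNZ@Gel areas, against 6.81, 5.07, 4.09 and 18.4 in the Gel areas, and rose (log2 change 2.79, SE 0.29, adjusted p = 1.1e-07). Mfap5 rose by 1.52, with 214 to 253 in CuNZ@Gel areas, against 40.6 to 131 in Gel areas. The median of the list was 0.92. Fbn2, encoding fibrillin 2, had 39.9 to 84.5 in CuNZ@Gel areas, against 1.36 to 26.6 in Gel areas, and was not called in Segment 2 (adjusted p = 0.4). The 4 tested small leucine-rich proteoglycans held no call, although their median was 1.42. Bgn, encoding biglycan, had 668, 654, 728 and 743 in the CuNZ@Gel areas, against 159, 85.0, 378 and 337 in the Gel areas, with no overlap (log2 change 1.77, SE 0.46, adjusted p = 0.14).

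Of the 12 tested enzymes that process collagen, Plod2, a lysyl hydroxylase, and Loxl2, a lysyl oxidase that cross-links collagen, rose. Plod2 had 46.0, 145, 85.8 and 114 in the CuNZ@Gel areas, against 8.18, 18.2, 100.2 and 10.2 in the Gel areas (log2 change 2.11, SE 0.33, adjusted p = 0.001). In 1 Gel area Plod2 lay within the CuNZ@Gel range, and the call was lost without CuNZ@Gel specimen 2 (adjusted p = 0.065, log2 change 1.97), the deepest area (0.16, log2 change 2.37) or Gel specimen 2 region 2 (0.84, log2 change 1.31). Loxl2 rose by 1.28 and lost its call without CuNZ@Gel specimen 2 (adjusted p = 0.11, log2 change 1.11), Gel specimen 1 (0.073, log2 change 0.97) or Gel specimen 2 region 2 (0.051, log2 change 1.00). Lox, the main lysyl oxidase, and Serpinh1, the collagen chaperone, stood just outside the threshold, with adjusted p of 0.057 and 0.058. Both changes were above 0. Over the 28 alternatives they ran from 0.04 to 1.65 for Lox and from 0.42 to 1.40 for Serpinh1. Other called genes outside the lists belong to matrix and adhesion. Itga11, a collagen-binding integrin chain, had 42.9, 22.8, 15.0 and 32.7 in the CuNZ@Gel areas, against 8.18, 8.46, 8.18 and 8.18 in the Gel areas, and rose by 1.57, and its call was lost without CuNZ@Gel specimen 1 (adjusted p = 0.058, log2 change 1.33). Antxr1, a collagen-binding receptor, Cdh11, a fibroblast cadherin, the glypicans Gpc1 and Gpc6, the metalloproteases Adam12 and Adamts10, the secretory pathway kinase gene Fam20c and the secreted C1q-related protein genes C1qtnf3 and C1qtnf5 rose too. C1qtnf3 had 39.9, 24.5, 21.8 and 21.8 in the CuNZ@Gel areas, against 1.36, 4.23, 2.04 and 8.18 in the Gel areas (log2 change 2.65, SE 0.33, adjusted p = 3.6e-06), and none of its Gel areas was above background. Ccbe1, needed for the processing of a lymphatic growth factor, and Clmp, an adhesion molecule, rose by 1.94 and 1.30. Among all 94 called targets, 70 were higher. Counted by role after the calls were known, 16 of 17 called genes of matrix proteins and all 9 of matrix enzymes and adhesion were higher. Of these, 7 of the 17 and 1 of the 9 kept their call without any 1 specimen or any 1 of the 3 areas that stood apart.

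Genes of the contractile actin cytoskeleton rose with CuNZ@Gel. Of the 8 tested contractile and myofibroblast genes, 5 rose (Tagln, Tnc, Cald1, Tpm1 and Flna), none fell, and the median was 1.58. Of these, Tnc encodes a matrix protein, not an actin-binding one, and is also counted in the matricellular list. Tagln, encoding the actin-binding protein transgelin, had 42.9, 40.3, 35.4 and 60.0 in the CuNZ@Gel areas, against 4.09, 3.38, 6.13 and 16.4 in the Gel areas. No area overlapped, none of the Gel areas was above background, with 3 to 8 recovered counts, and Tagln rose (log2 change 2.63, SE 0.33, adjusted p = 3.6e-06). Acta2, encoding the smooth muscle actin that defines myofibroblasts, had 282, 426, 285 and 403 in the CuNZ@Gel areas, against 24.5, 8.46, 77.7 and 129 in the Gel areas. Every CuNZ@Gel area was higher, and the change was larger than that of Tagln, but the residual SD between specimens was 1.12 on the log2 scale and Acta2 did not pass the test (log2 change 3.12, SE 1.05, adjusted p = 0.44). It passed under 7 of the 28 alternatives, among them edgeR's quasi-likelihood test on recovered counts (adjusted p = 0.00406) and limma without trend and robust moderation (adjusted p = 0.0196). Tpm2, a tropomyosin, had 101, 151, 114 and 181 in the CuNZ@Gel areas, against 15.0, 15.6, 75.6 and 34.7 in the Gel areas, and missed the threshold (log2 change 2.20, SE 0.47, adjusted p = 0.071). Tpm1, another tropomyosin, rose by 1.13, and its call was lost without CuNZ@Gel specimen 2 (adjusted p = 0.21, log2 change 0.94) or Gel specimen 1 (0.17, log2 change 0.75).

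Further called genes bind or cross-link actin. Actn1 and Actn4, the non-muscle alpha-actinins, rose by 1.56 and 0.97, and Palld, encoding palladin, rose by 1.75. Actn1 had 52.1, 105, 83.1 and 105 in the CuNZ@Gel areas, against 21.8, 23.3, 32.7 and 34.7 in the Gel areas. Myh10, a non-muscle myosin heavy chain, Pdlim7, Cnn3, encoding calponin 3, and Afap1 rose by 1.48, 1.09, 0.96 and 1.24. Tubb3, a tubulin, had 12.3 to 26.3 in CuNZ@Gel areas, against 1.36 to 14.3 in Gel areas, and rose (log2 change 1.89). Among all 94 called targets, 70 were higher and 63 had no overlap of areas. Gathered by role after the calls were known, all 12 called cytoskeletal genes were higher, 10 of them with no overlap. Only Tagln, Actn1 and Palld among them kept their call without any 1 specimen or any 1 of the 3 areas that stood apart.

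**Figure D3:**
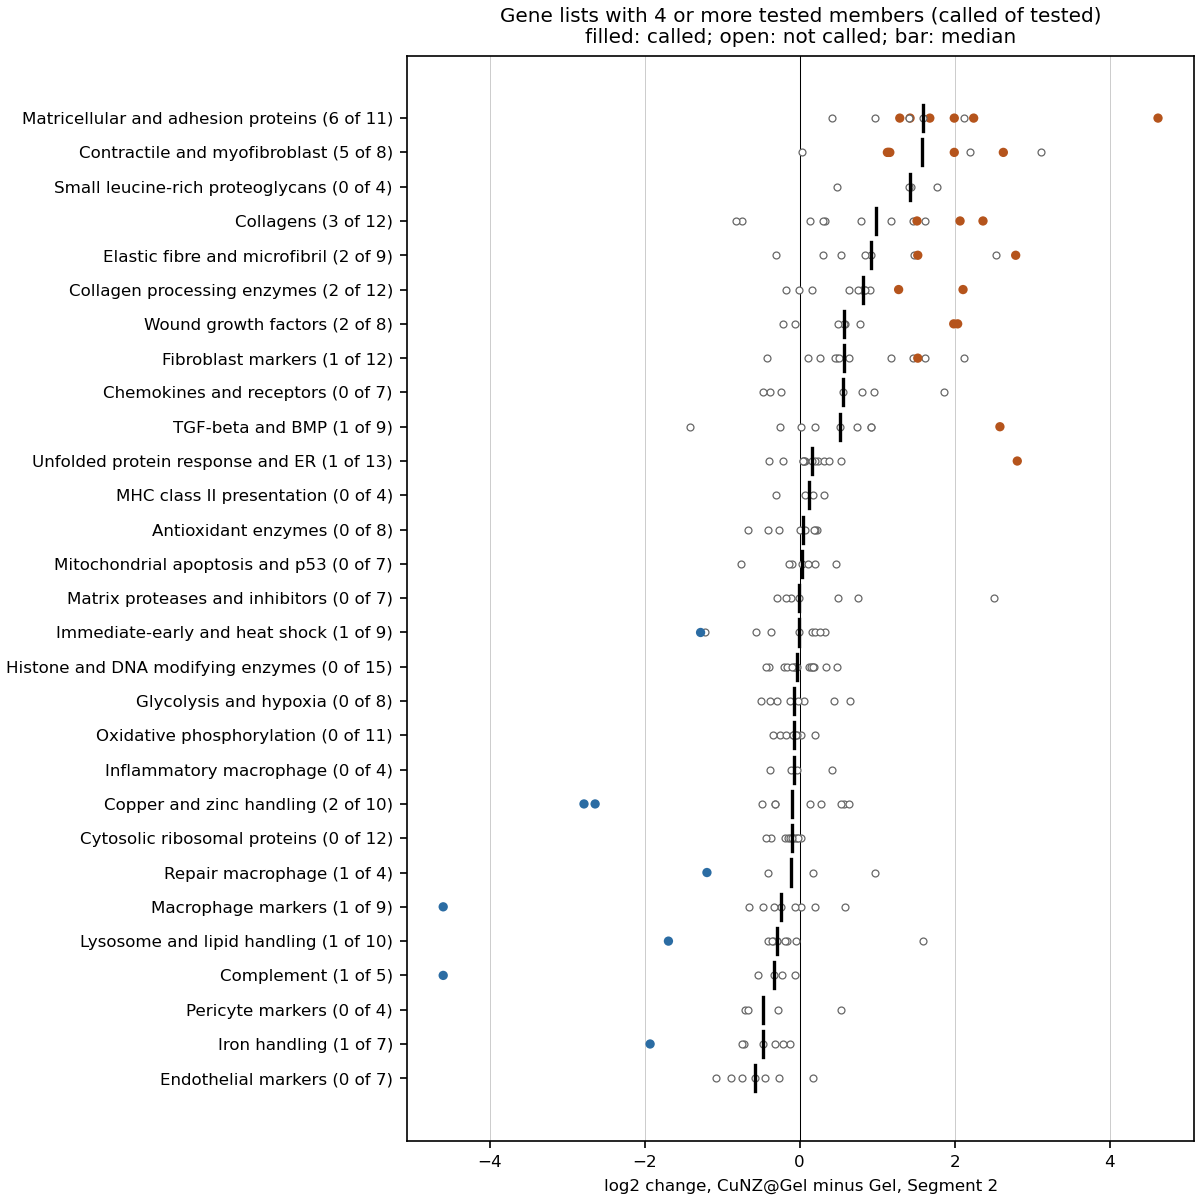
Log2 change, CuNZ@Gel minus Gel (horizontal axis), of every tested member of the gene lists with 4 or more tested members, ordered by median. Filled points were called, open points were not, and bars are medians. The matricellular, contractile, collagen and microfibril lists hold called rises with medians from 0.92 to 1.59. The 15 tested histone and DNA modifying enzymes hold no call, where 2.17% of all tested targets were called.

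Genes of activin and Wnt signalling were among the calls, with no Wnt list fixed and the Wnt genes gathered from the calls. Inhba, encoding the subunit of activin A, had 104, 254, 149 and 161 in the CuNZ@Gel areas, against 12.3, 39.3, 53.1 and 16.4 in the Gel areas. The CuNZ@Gel areas were all higher, and Inhba rose (log2 change 2.58, SE 0.28, adjusted p = 4.6e-07). Fst, encoding follistatin, which binds and blocks activin, had 6.13, 8.76, 12.3 and 6.81 in the CuNZ@Gel areas, against 23.2, 40.2, 16.4 and 20.4 in the Gel areas. All CuNZ@Gel areas were lower and none was above background, but Fst missed the threshold in Segment 2 (log2 change -1.42, SE 0.41, adjusted p = 0.069). Pmepa1, a feedback inhibitor that responds to TGF-beta, rose by 1.27 and lost its call without CuNZ@Gel specimen 2 (adjusted p = 0.21, log2 change 0.92) or Gel specimen 2 region 2 (0.55, log2 change 0.55). Inhba was the only call among 9 tested genes of the TGF-beta and BMP list, whose median was 0.52. Wnt5a, a Wnt ligand of the non-canonical branch, had 52.1, 82.3, 36.8 and 70.9 in the CuNZ@Gel areas, against 5.45, 15.2, 42.9 and 8.18 in the Gel areas, and rose (log2 change 2.04, SE 0.30, adjusted p = 5.9e-05), with 1 Gel area inside the CuNZ@Gel range. Wnt4, another ligand, rose by 1.30 at a low level, with 16.4 to 27.3 in CuNZ@Gel areas, against 4.09 to 12.3 in Gel areas. Sfrp2 and Sfrp4, secreted Wnt binders, rose by 1.19 and 1.18, and Ptk7, a Wnt co-receptor, rose by 1.21.

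Mdk, encoding the heparin-binding growth factor midkine, had 36.8, 57.8, 39.5 and 43.6 in the CuNZ@Gel areas, against 15.0, 9.73, 12.3 and 6.13 in the Gel areas, and rose (log2 change 1.99, SE 0.26, adjusted p = 8.9e-06). Il33, encoding an alarm cytokine of fibroblasts and lining cells, had 55.2, 163, 109 and 77.7 in the CuNZ@Gel areas, against 13.6, 16.1, 45.0 and 42.9 in the Gel areas. It rose (log2 change 1.83, SE 0.37, adjusted p = 0.015), and its call was lost without the deepest area (adjusted p = 0.065, log2 change 1.88), the shallowest area (0.091, log2 change 2.21), CuNZ@Gel specimen 1 (0.3, log2 change 1.80) or specimen 2 (0.22, log2 change 1.85). Igfbp4, a binder of insulin-like growth factors, rose by 1.15, and Fstl1, a secreted follistatin-like glycoprotein, by 1.06. The remaining signalling calls that were higher were the receptor genes Tnfrsf21, Lpar6 and Gpr153, the small GTPase genes Rasl11b and Rasl12 and the calcium channel subunit gene Cacnb3. Rasl11b had 21.5, 26.3, 45.0 and 38.2 in the CuNZ@Gel areas, against 1.36, 6.34, 16.4 and 4.09 in the Gel areas, and rose (log2 change 2.37, SE 0.38, adjusted p = 0.00019).

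Some transcription regulators rose and others fell. Sox4, a transcription factor of progenitor cells, had 132, 166, 135 and 168 in the CuNZ@Gel areas, against 20.4, 28.8, 57.2 and 34.7 in the Gel areas. No area overlapped, and Sox4 rose (log2 change 2.15, SE 0.27, adjusted p = 4.6e-06). Vgll3 and Tead2, a cofactor and a factor of the TEAD family, rose by 1.59 and 1.71, and Runx2, a regulator of bone formation, rose by 1.30. Sertad4, Tsc22d1 and Cux1 rose by 1.73, 1.17 and 0.93. Id1, an inhibitor of helix-loop-helix factors, had 30.7, 14.0, 21.8 and 24.5 in the CuNZ@Gel areas, against 46.3, 38.1, 55.2 and 69.5 in the Gel areas, and fell (log2 change -1.18, SE 0.28, adjusted p = 0.012), and its call was lost without CuNZ@Gel specimen 1 (adjusted p = 0.12, log2 change -1.11), specimen 2 (0.058, log2 change -1.25) or Gel specimen 2 (0.2, log2 change -0.91). Ebf3, a factor of mesenchymal cells, had 7.01 to 12.3 in CuNZ@Gel areas, against 16.5 to 73.6 in Gel areas, and fell, with a log2 change of -1.59 and no CuNZ@Gel area above background. Ccnd2, encoding cyclin D2, had 9.20, 10.5, 20.4 and 12.3 in the CuNZ@Gel areas, against 43.6, 27.9, 40.9 and 42.9 in the Gel areas, and fell (log2 change -1.54, SE 0.30, adjusted p = 0.0021), a call that was lost without CuNZ@Gel specimen 1 (adjusted p = 0.079, log2 change -1.22). Of 3 called histone genes, all fell: H3c1 had 117, 277, 151 and 154 in the CuNZ@Gel areas, against 399, 208, 621 and 382 in the Gel areas (log2 change -1.17, SE 0.26, adjusted p = 0.0076), and H1f1 and H4c17 changed by -1.23 and -1.15. The areas of H3c1 overlapped, and its call was lost without the shallowest area (adjusted p = 0.2, log2 change -0.86), CuNZ@Gel specimen 1 (0.064, log2 change -1.29), specimen 2 (0.16, log2 change -1.06) or Gel specimen 2 (0.052, log2 change -0.80). Histone genes of a family are close in sequence, and a probe may not tell near copies apart. The 15 tested enzymes that modify histones or DNA, genes of the epigenetic control named in the series title, held no call. With 2.17% of all tested targets called, a lack of calls among 15 genes does not set this list apart. Their median was -0.03 and their range -0.44 to 0.48.

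Macrophage and complement genes did not move as a block. C1qb, encoding the B chain of the complement protein C1q, had 15.3, 1.75, 6.81 and 1.36 in the CuNZ@Gel areas, against 104, 107, 190.1 and 131 in the Gel areas. The CuNZ@Gel values were 1 to 5 recovered counts and none was above background, and C1qb fell (log2 change -4.60, SE 0.32, adjusted p = 3.1e-11). C1q is built from A, B and C chains, which macrophages usually make together. C1qa, the A chain, had 46.0, 42.0, 36.8 and 45.0 in the CuNZ@Gel areas, against 49.1, 51.6, 63.4 and 51.1 in the Gel areas, without overlap but with a small change that did not pass the test (log2 change -0.33, SE 0.26, adjusted p = 0.76). C1qc, the C chain, had 208, 168, 174 and 223 in the CuNZ@Gel areas, against 149, 163, 259.6 and 256 in the Gel areas, and was not called (log2 change -0.06, 95% interval -0.58 to 0.46). The B chain thus stood near the floor in areas where both partners were above background. C3, the central complement protein, had 87.2 to 169 in CuNZ@Gel areas, against 96.1 to 237 in Gel areas, and was not called (log2 change -0.53, 95% interval -1.05 to -0.01). Its Sham areas ranged lower, from 8.18 to 20.4.

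Of the 9 tested macrophage markers, C1qb was the only call, and the list median was -0.24. The summed signal of all 20 macrophage markers was 1193 to 1355 in CuNZ@Gel areas, against 1375 to 2216 in Gel areas. That sum includes C1qb. The lowest Gel sum exceeds the highest CuNZ@Gel sum by less than the C1qb signal of any Gel area. Without C1qb the ranges of both gels would overlap. Cd68, a lysosomal marker of macrophages, had 107, 224, 157 and 173 in the CuNZ@Gel areas, against 184, 170.0, 313 and 131 in the Gel areas, and was not called (log2 change -0.24, 95% interval -0.73 to 0.25). Lyz2, encoding lysozyme, was not called either, with a log2 change of 0.58. Mrc1, the mannose receptor of repair macrophages, had 21.5, 21.0, 25.9 and 28.6 in the CuNZ@Gel areas, against 61.3, 75.7, 87.9 and 24.5 in the Gel areas. It fell (log2 change -1.20, SE 0.29, adjusted p = 0.017), and its call was lost without CuNZ@Gel specimen 1 (adjusted p = 0.23, log2 change -1.02) or Gel specimen 1 (0.22, log2 change -0.93). Arg1, arginase 1 of repair macrophages, had 27.6, 66.6, 50.4 and 39.5 in the CuNZ@Gel areas, against 36.8, 94.7, 256 and 12.3 in the Gel areas, and was not called (log2 change -0.40, 95% interval -1.05 to 0.25). Ctsl, a lysosomal protease, had 3.07, 47.3, 28.6 and 21.8 in the CuNZ@Gel areas, against 80.4, 72.3, 94.0 and 24.5 in the Gel areas, and fell (log2 change -1.69, SE 0.31, adjusted p = 0.0013). The lowest Ctsl value was 1 recovered count in the shallowest area, and without that area the call was lost (adjusted p = 0.27, log2 change -0.80), as it was without CuNZ@Gel specimen 1 (0.085, log2 change -1.25). Ms4a4a, a membrane protein of macrophages, moved the other way. It had 12.3, 31.5, 24.5 and 27.3 in the CuNZ@Gel areas, against 1.36, 5.07, 2.04 and 2.04 in the Gel areas, and rose (log2 change 2.80, SE 0.38, adjusted p = 1.1e-05), with no Gel area above background and 1 to 12 recovered counts there. Sham areas were higher than both, at 39.9, 73.6, 47.0 and 38.8. The 4 tested inflammatory macrophage genes and the 7 tested chemokine genes held no call.

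A split between subunits was also seen within oligosaccharyltransferase, the enzyme complex of the endoplasmic reticulum that attaches sugar chains to new proteins. Rpn2, encoding its ribophorin II subunit, had 33.7, 89.4, 46.3 and 65.4 in the CuNZ@Gel areas, against 9.54, 9.73, 6.13 and 4.09 in the Gel areas. The CuNZ@Gel areas were all higher, none of the Gel areas was above background, with 2 to 23 recovered counts, and Rpn2 rose (log2 change 2.81, SE 0.41, adjusted p = 3.8e-05). Sham areas resembled Gel, at 9.20, 9.81, 4.09 and 6.13, and none was above background. Rpn2 thus entered the test only through its 4 CuNZ@Gel areas, so the filter and the p-value rest on the same high values. Rpn1, the ribophorin I subunit, had 23.2 to 36.8 in CuNZ@Gel areas, against 14.3 to 32.7 in Gel areas, with a change of 0.38, and Ostc had 36.8 to 64.8 in CuNZ@Gel areas, against 24.5 to 71.5 in Gel areas, with a change of 0.53. Rpn1, Ostc and the other subunits tested, 9 in all besides Rpn2, had changes between 0.04 and 0.82, with 0.199 as their smallest adjusted p (Dad1), and none was called. Rpn2 was the only call among 13 tested genes of the unfolded protein response and the endoplasmic reticulum, whose median was 0.16. Outside that list, Fkbp11, a folding enzyme, and Gmppb, which makes a sugar donor, rose by 1.24 and 1.45, while Pigz, an enzyme of lipid anchors, changed by -1.42.

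**Figure D4:**
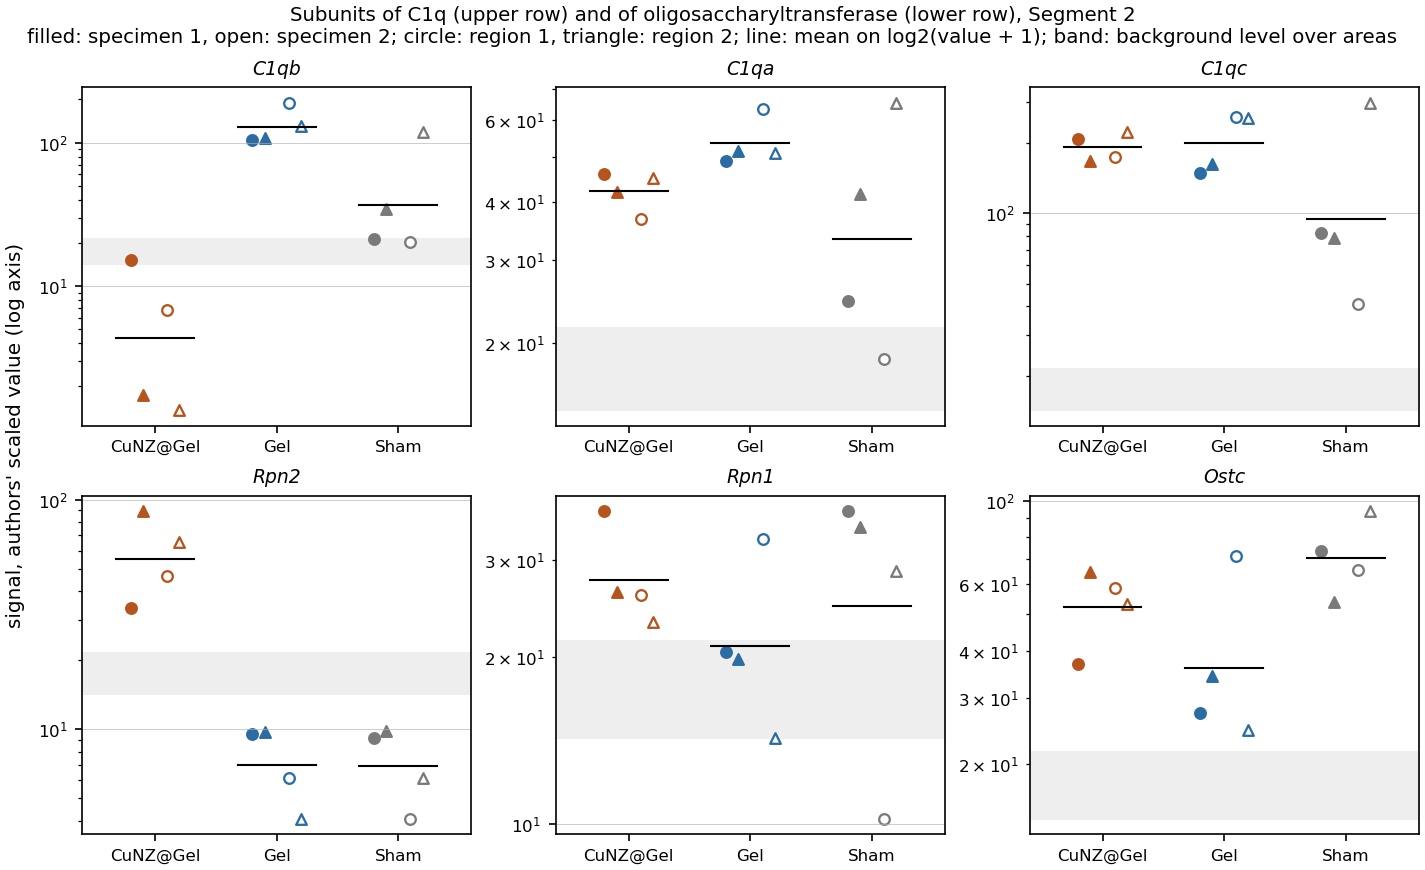
Segment 2 signal (log axis) of 3 C1q chains (upper row) and 3 oligosaccharyltransferase subunits (lower row) in each area of CuNZ@Gel, Gel and Sham, with points, lines and grey band as in the plot of 12 targets. C1qb lies under or in the background band in all 4 CuNZ@Gel areas and above it in all 4 Gel areas, and Rpn2 lies below the band in Gel and Sham, while none of the 4 partners shown was called.

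The other falls were spread over roles. Dusp1, an early phosphatase that switches off stress kinases, had 21.5, 15.8, 21.8 and 27.3 in the CuNZ@Gel areas, against 46.3, 57.9, 42.9 and 67.5 in the Gel areas, and fell (log2 change -1.28, SE 0.30, adjusted p = 0.012). It lost its call without CuNZ@Gel specimen 1 (adjusted p = 0.19, log2 change -1.08) and was the only call among 9 tested immediate-early and heat shock genes. Nos3, the endothelial nitric oxide synthase, had 12.3, 14.0, 17.7 and 27.3 in the CuNZ@Gel areas, against 35.4, 27.1, 51.1 and 45.0 in the Gel areas, and fell (log2 change -1.13, SE 0.31, adjusted p = 0.044), and its call was lost without CuNZ@Gel specimen 1 (adjusted p = 0.5, log2 change -0.78), Gel specimen 2 (0.39, log2 change -0.83) or the shallowest area (0.082, log2 change -1.09). The 7 tested endothelial markers, a list without Nos3, held no call and had a median of -0.58. Sox17, an endothelial factor, had 3.07 to 20.4 in CuNZ@Gel areas, against 13.5 to 19.1 in Gel areas (log2 change -1.08, adjusted p = 0.28). Gda, which breaks down guanine, had 73.6, 85.8, 109 and 119 in the CuNZ@Gel areas, against 211, 233, 202 and 211 in the Gel areas, and fell (log2 change -1.16, SE 0.24, adjusted p = 0.004), and its call was lost without CuNZ@Gel specimen 1 (adjusted p = 0.21, log2 change -0.91). Mgst1, a glutathione transferase of membranes, fell with a log2 change of -1.15, while Gstm5, another glutathione transferase, rose by 1.12. The ribosomal protein gene Rps23, outside the ribosomal list, changed by -1.17, and the 12 tested ribosomal proteins of the list held no call and had a median of -0.10. The kinase gene Prkaca, the GTPase gene Rasd1, the exchange factor gene Mcf2l, Vwa5a and C130074G19Rik also fell, with log2 changes from -1.59 to -1.12. Maged1, Smim14, Ptov1, Pdzrn3 and Flna rose by 1.12, 1.01, 1.15, 0.96 and 1.15, and Cald1 by 1.16.

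The 42 gene lists held 636 genes, of which 630 were on the panel and 244 were tested. Of the lists, 17 held a call and 25 held none. As 2.17% of all tested targets were called, a short list without a call is not thereby set apart. Markers of keratinocytes, mast cells and skeletal muscle were low. No keratinocyte or mast cell marker was tested: the 17 keratinocyte markers summed to 65.4 to 77.1 in CuNZ@Gel areas, against 83.1 to 112 in Gel areas, and the 8 mast cell markers to 26.3 to 36.8 in CuNZ@Gel areas, against 30.7 to 46.9 in Gel areas. Of 12 skeletal muscle markers 1 was tested, with sums of 64.4 to 84.5 in CuNZ@Gel areas and 65.4 to 161 in Gel areas. The 20 endothelial markers summed to 157 to 338 in CuNZ@Gel areas and 250 to 399 in Gel areas. Fibroblast markers were the most abundant of these cell type lists: 18 of them summed to 8941 to 13134 in CuNZ@Gel areas and 3006 to 12080 in Gel areas, with 1 call, Mfap5, among 12 tested and a median of 0.57. The part that a different share of fibroblasts between areas has in the matrix and contractile rises was not tested.

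The Gel specimens varied more than the CuNZ@Gel specimens in the called genes. For 71 of the 94 called targets the SD between specimens was larger in Gel than in CuNZ@Gel, against 49.7% of all tested targets. Among the 70 targets that rose, the median SD on the log2 scale was 0.175 in CuNZ@Gel and 0.454 in Gel (over all tested targets 0.214 and 0.208). Gel specimen 1 was below Gel specimen 2 for 56 of these 70, against 63.7% of all tested targets.

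Sham values were set beside both gels without a test, because any contrast with Gel would share its areas. For 69 of the 70 targets that rose, Gel had the lowest mean of the 3 treatments, and for 22 of the 24 that fell, Gel had the highest. The choice of targets by their change fixes much of this: Gel had the lowest mean for 84.6% of the 2208 tested targets with a change above 0 and the highest for 39.8% of the 2121 with a change below 0. The Sham mean lay above both gels for 59 of the 94 called targets, a share near the 62.3% over all tested targets. By role, this held for 13 of 17 matrix proteins, 11 of 12 cytoskeletal genes and 0 of 3 metal and iron genes, of which all 3 had Sham below both gels. Col12a1, for example, stood at 1429, 1631, 989 and 2038 in Sham areas, with 3 of 4 above every CuNZ@Gel area, and Igfbp4 at 2076, 2004, 1478 and 842, above all of them.

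The same contrast was measured in the Segment 1 areas of the same specimens, which did not enter the calls. All 94 targets called in Segment 2 had a change of the same sign in Segment 1, against 66.0% of all tested targets, and both segments share their specimens. Of the 94, 55 were also called there, where 104 of the 4329 targets (2.4%) were called in all. C1qb changed by -4.87 in Segment 1, with 2.86, 4.29, 4.72 and 3.07 in the CuNZ@Gel areas, against 102, 115, 145 and 201 in the Gel areas. Tnn changed by 5.25 and Mt2 by -2.58, with Mt2 at 437, 518, 509 and 360.3 in the CuNZ@Gel areas, against 4130.2, 2371, 2298 and 2396 in the Gel areas. Rpn2 changed by 2.56 (adjusted p = 3.1e-07) and Prg4 by -2.78 (adjusted p = 0.00022). Fst, not called in Segment 2, was called in Segment 1 (-1.25, adjusted p = 0.0038), as was Fbn2 (2.08, adjusted p = 8.2e-05). The difference of the change between the segments was tested for every target, and none of 4329 was called by limma (smallest adjusted p = 0.816), with 187 at an unadjusted p under 0.05. No difference between segments was therefore shown for any target, including Adamts10 and Il33, which had smaller Segment 1 changes of 0.04 and 0.84.

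**Figure D5:**
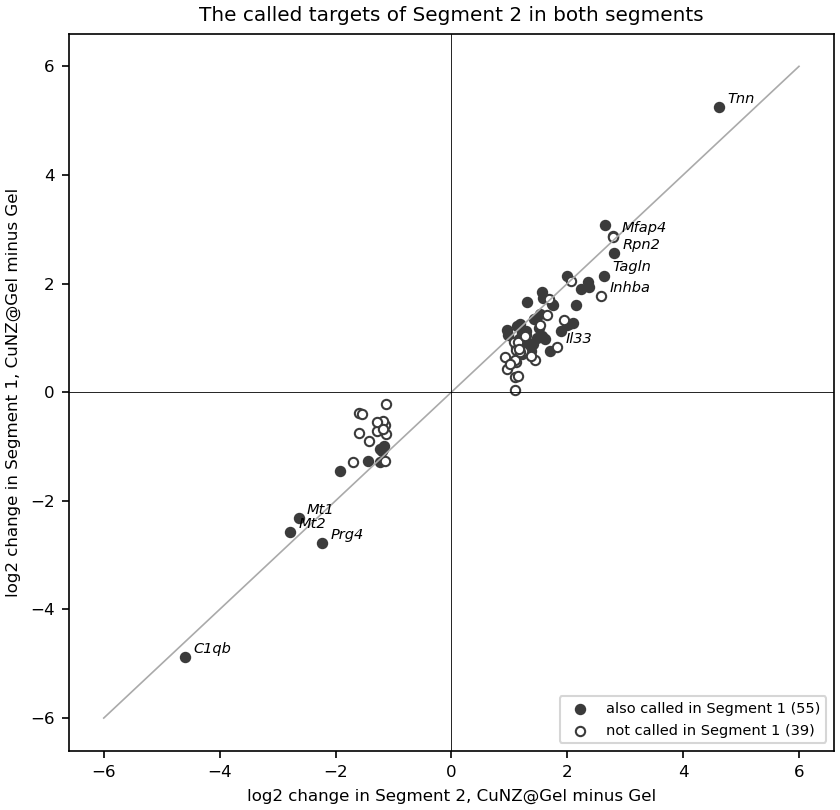
Log2 change, CuNZ@Gel minus Gel, in Segment 2 (horizontal axis) and in Segment 1 (vertical axis) of the 94 targets called in Segment 2. Filled points were also called in Segment 1 (55) and open points were not (39), and the diagonal marks equal change. All 94 points lie in the quadrants of equal sign.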

How the data were processed

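The authors deposited 1 table per area, with a scaled signal for 19963 targets, 1 of them a negative probe. Per the labels' protocols, the areas were profiled with GeoMx RNA detection probes, while no source used here gives the counting software or the scaling. The deposited values had a 75th percentile of 12.3 in each area but 1 Gel area (12.1), and 99.98% to 99.995% of values were whole multiples, within 0.01, of the lowest one. Whole counts were recovered on that basis and used for depth and for count tests.

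The signal was analysed as log2(signal + 1), averaged over 2 areas per specimen. limma 3.58.1 in R 4.3.3 (trend and robust moderation) was fitted to the 6 Segment 2 specimens, with 3 residual degrees of freedom and a prior of 26.5, so the spread is largely pooled over targets and the p-values may be too small. Replicates are specimens, which the labels do not call separate animals, and an exact permutation test of 2 against 2 specimens cannot go below 0.333. The background level came from 1127 receptor targets, and 15634 targets were not tested. The difference between segments was fitted to the Segment 2 minus Segment 1 value of each specimen.

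The rule for named genes took the 12 largest rises and falls whose specimens did not overlap, the 3 smallest p-values of each of 42 gene lists, a set of 24 genes and 6 genes with the largest difference between segments, 120 genes in all. Of these 56 are described, and the other 64 are not described singly: 63 were tested, none of them was called, and their changes ran from -1.23 to 2.51. Other called targets were named after their values were seen. The comparison, the lists and the genes were chosen with earlier results of these data known. Alternatives covered filters, pseudocounts, scaling, leaving out specimens, regions or areas, a replicate block, random blocks, thinned counts, edgeR 4.0.16 and DESeq2 1.42.0. Same-numbered specimens did not vary together (correlations of deviations 0.022, -0.003 and -0.031). The fits were tested on simulated data.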

Additional observations from a re-analysis of the deposited data

Results flagged for a closer look

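In the described genes, each group of 4 areas was searched for 1 area far from the other 3, a rule that chance meets in about 1 of 20 groups. It was met in 14 of 234 groups (5.98%). Within CuNZ@Gel, Antxr1 stood at 215.3 in specimen 2 region 2, above 186 to 188 in the others. Mt2 reached 599.6 in CuNZ@Gel specimen 2 region 1, above 370 to 386. Cnn3 stood at 101 in CuNZ@Gel specimen 1 region 1, the shallowest area, below 147 to 157.

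Within Gel, 3 genes were set apart in specimen 2 region 2 by a low value: Fth1 at 1032 (others 2501 to 2936), Mtf1 at 12.3 (22.4 to 24.5) and Tnn at 2.04 (5.45 to 6.13). In the same area Igfbp4 was high, at 237 (123 to 125). In Gel specimen 2 region 1, Loxl2 was high at 49.1 (20.7 to 22.5), and so was Palld at 53.1 (15.2 to 18.4). In Gel specimen 1 region 2, the deepest area, Ccnd2 was low at 27.9 (40.9 to 43.6) and Sox17 at 13.5 (18.4 to 19.1), while Itga11 stood at 8.46 beside values of 8.18. In Gel specimen 1 region 1, Runx2 was low at 6.81 (9.73 to 10.2), and Atox1 at 21.8 (25.8 to 26.6). Calls were refitted without the deepest area, without the shallowest and without Gel specimen 2 region 2, and the other areas were not left out singly.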

How the results depend on the processing

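The count of 94 calls for CuNZ@Gel against Gel in Segment 2 moved by over 1.5 times to 58 without trend and robust moderation (42 higher, 16 lower), 60 with region mac1 alone (22 and 38), 62 with DESeq2 and 59 with counts thinned to the shallowest area. The cause was not tested. Leaving out 1 specimen, Sham included, gave 41 to 162 calls, with a lone specimen assumed to vary like the others. Region mac2 alone gave 96 calls (87 higher, 9 lower), and of the 94 calls 33 were also made in mac1 alone and 54 in mac2 alone. Median scaling gave 68 higher and 31 lower, and edgeR 100 and 34. The remaining alternatives gave between 65 (without 3 areas that stood apart, a setting chosen after seeing the data) and 137 calls (both segments). With the replicate block 115 targets were called, of which 93 were among the 94. With only the 4 gel specimens in the fit, and so no Sham, 89 were called, of which 83 were among the 94. No call was turned in direction under any of the 28 alternatives that gave a result for it. In the same sense 7 were kept under all: Tnn, C1qb, Sox4, Prg4, Ms4a4a, C1qtnf3 and Mdk. Of these, Tnn and Ms4a4a had a result in 27 of the 28. The difference between segments gave 0 calls under all 19 alternatives run for it.

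Among genes not called, some changes turned sign: Arg1 with region mac2 alone (0.55) and with thinned counts (0.10), Cd68 with region mac2 alone (0.40) and without the shallowest area (0.023), and Rpn1 without the 3 areas (-0.028). Leaving out 1 specimen gave C1qc changes from -0.42 to 0.30 (positive without Gel specimen 2) and Mtf1 changes from -0.95 to 0.15 (positive without CuNZ@Gel specimen 1). Depth limits targets near the floor: 11 rises had no Gel area above background and 4 falls had no CuNZ@Gel area above background.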
